A study of Mus musculus with 30 samples.

Results

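Carboxylesterases of the Ces1, Ces2 and Ces3 subfamilies were followed in mouse liver through 10 genes, namely Ces1b, Ces1c, Ces1d, Ces1e, Ces1f, Ces1g, Ces2a, Ces2e, Ces3a and Ces3b. They were taken by symbol from a liver RNAseq table of 55487 genes, which holds 20 genes named Ces in all. The table covers 30 livers of male C57BL/6 mice, 8 weeks old at the start, with no transgene or knockout in any group. The 4 groups were regular chow diet (RCD) with a mouse IgG2a isotype control (RCD IgG, n = 5), RCD with a monoclonal antibody against ACBP/DBI (RCD anti-DBI, n = 5), methionine/choline-deficient diet (MCD) with the isotype (MCD IgG, n = 10) and MCD with the antibody (MCD anti-DBI, n = 10). Each diet lasted 6 weeks, and all mice, controls included, were given 1 of the antibodies, 2 times weekly, between weeks 4 and 6. ACBP/DBI is a small acyl-CoA binding protein that is also released into the circulation, where the antibody neutralizes it. MCD removes precursors of phosphatidylcholine and of secreted lipoproteins and makes the liver fatty. No MCD with methionine and choline added back was among the groups, so the missing nutrients and the rest of the diet's composition cannot be told apart.

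Carboxylesterases are serine hydrolases that split esters, amides and thioesters. Hepatocytes hold them in the lumen of the endoplasmic reticulum, where they hydrolyse drugs, prodrugs and toxins, and where several act on triacylglycerol and cholesteryl ester and so feed lipid to the assembly of very low density lipoprotein (VLDL). The mouse has many more such genes than man, arranged as tandem copies, and 1 of their products circulates in rodent plasma. The 10 genes lie on chromosome 8 in 2 clusters. On GRCm38, the build of the table, Ces1b to Ces1g occupy chr8:93056728-93337308 on the minus strand, and Ces2a to Ces3b occupy chr8:104734003-105093929 on the plus strand.

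The end of the coding sequence bears on where a carboxylesterase goes, because a histidine, any residue, a glutamate and a leucine at the end keep the protein in the endoplasmic reticulum. The last 30 coding bases before the stop codon of each gene's canonical transcript (GENCODE vM39, read 5′ to 3′, last 4 codons in capitals) are shown for that reason.
Ces1b: acagaccctactgagcacAGAGAACACAAA
Ces1c: acagaccctactgaacacACAGAACACAAA
Ces1d: aggccatcccacagggaaCATGTTGAGCTC
Ces1e: aagcaactgccgacagaaCACACTGAGCTG
Ces1f: aaacaaccccagccatacCACAATGAGCTG
Ces1g: aggtcatcccatagggaaCATGTTGAACTG
Ces2a: aagggttctcaggacaagCATGCAGAGCTG
Ces2e: aaggggtctcaggagaggCACAAAGAGTTG
Ces3a: cagagaagcaggaaagttCCAGAGGAGCTC
Ces3b: cagagaagcaggaaagttCCAGAGGAGCTC
Codons of this retention signal closed 6 of the 10 sequences, those of Ces1d, Ces1e, Ces1f, Ces1g, Ces2a and Ces2e. Ces1b and Ces1c ended in other codons, and the 30 bases of Ces3a and Ces3b were identical to each other and ended in a glutamate and a leucine without the histidine. All 10 coding sequences held codons for the serine hydrolase active site, a serine between 2 glycines with any residue on either side, with the serine at codons 221 to 232. Those of the genes that differ most there are shown with the 5 codons in capitals and 4 codons on either side.
Ces1d: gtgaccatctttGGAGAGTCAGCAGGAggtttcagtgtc
Ces1b: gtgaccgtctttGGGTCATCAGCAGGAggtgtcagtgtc
Ces1c: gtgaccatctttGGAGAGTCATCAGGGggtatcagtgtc
Ces2a: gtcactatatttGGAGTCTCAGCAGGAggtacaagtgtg
Ces3a: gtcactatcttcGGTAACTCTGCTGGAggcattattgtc
Ces3b: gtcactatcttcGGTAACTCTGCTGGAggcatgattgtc
Ces1b, Ces2a, Ces3a and Ces3b carried, before the serine, another codon than the GAG of Ces1d and Ces1c.

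By coding sequence, Ces3a and Ces3b were the closest pair (95.3% of aligned bases identical), followed by Ces1b and Ces1c (90.9%), Ces2a and Ces2e (83.3%) and Ces1d and Ces1g (81.6%), while Ces1g and Ces3a shared only 58.9%. Such likeness can blur counts. Of all stretches of 150 bases, the read length, in each canonical transcript, 2.36% of Ces3a and 1.88% of Ces3b occurred letter for letter in the other gene, 4.01% of Ces2a occurred in the gene model Gm63300, and none of the other 7 genes' stretches occurred in another gene. Reads that fit several genes were handled in a way not given in the sources used here, so the split between Ces3a and Ces3b carries this uncertainty.

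Libraries held 8.36 to 21.7 M counts (median 13.8 M), of which 4.01% to 5.69% were mitochondrial. Median depth was 11.3 M in RCD IgG, 13.2 M in RCD anti-DBI, 12.9 M in MCD IgG and 18.0 M in MCD anti-DBI. In the same order, the mitochondrial share was 4.99% to 5.69%, 4.38% to 5.45%, 4.01% to 4.73% and 4.19% to 4.88%. Of all counts the 10 genes took a share of 0.674% to 0.785% (RCD IgG), 0.665% to 0.787% (RCD anti-DBI), 0.269% to 0.442% (MCD IgG) or 0.474% to 0.543% (MCD anti-DBI). Within MCD anti-DBI, replicates 5 and 10 were nearly identical, with 8 of 9440 well-counted genes differing by over 1.5-fold against 134 or more in every other pair of replicates. Their counts differed by more than counting noise (chi-square per degree of freedom 1.82, against 8.95 or more in every other pair), which libraries of a single liver could also do. Whether they came from separate livers was not tested. They were counted as separate samples, as the labels list them, so that n = 10 in this group may overstate the number of livers. Summed to 1 library they changed no call of a member. The labels do not tie a sample to a cage or litter, so p-values measure the spread between these libraries. The label liver was borne out by 7 measured hepatocyte markers such as Alb and Apob, whose summed level was 89162 to 128355 CPM over the RCD livers. Here CPM stands for counts per 1000000 counts of a library, with TMM scaling between libraries. On MCD the same markers summed to 84354 to 140814 CPM under the isotype and to 127186 to 184352 CPM under anti-DBI. In RNA of whole liver, fewer cells of a type and less RNA per cell cannot be told apart. Dbi itself stood at 588 ± 41.1 CPM (SD, n = 5) in RCD IgG, 600.3 ± 45.1 (n = 5) in RCD anti-DBI, 308 ± 20.3 (n = 10) in MCD IgG and 434 ± 50.5 (n = 10) in MCD anti-DBI.

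In livers of RCD IgG the family was led by Ces1c and Ces3a. Per 1000 bases of merged exons, Ces1c stood at 967 ± 79.8 CPM (SD, n = 5), Ces3a at 362 ± 26.7, Ces1d at 198 ± 22.6 and Ces2a at 151 ± 7.76. Ces1f, Ces3b, Ces1g and Ces2e followed at 131, 124, 116 and 100.4 CPM per 1000 bases, and the ranges of livers of neighbours in that order overlapped from Ces1f to Ces2e. Ces1e, at 69.2, and Ces1b, at 20.5, stood below all of them with ranges that did not overlap. The longest coding transcript in place of merged exons gave the same order. On MCD the order changed. In MCD IgG the lead of Ces1c (700.1 ± 140 per 1000 bases, n = 10) and Ces3a (114 ± 26.5) remained, but Ces2e (53.6) came next, Ces2a fell from the 4th to the 8th place (12.1) and Ces3b from the 6th to the 10th (9.63). Ranges of livers overlapped among Ces2e, Ces1g and Ces1d, and among Ces1b, Ces1f, Ces2a, Ces1e and Ces3b. The order within each of these sets is therefore not fixed.

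The 10 genes together reached 7983 ± 432 CPM (SD, n = 5) in RCD IgG, 8032 ± 534 (n = 5) in RCD anti-DBI, 3254 ± 604 (n = 10) in MCD IgG and 5273 ± 423 (n = 10) in MCD anti-DBI. The highest MCD IgG liver reached 4318 CPM, under the lowest MCD anti-DBI liver at 4837, whose group in turn stayed under the lowest RCD IgG liver at 7271. The mix changed as well. Ces1c made up 31.8% ± 1.55 of the sum in RCD IgG, 56.5% ± 4.81 in MCD IgG and 51.0% ± 2.98 in MCD anti-DBI. Without Ces1c, the other 9 genes summed to 5442 ± 281 CPM in RCD IgG, 1415 ± 295 in MCD IgG and 2585 ± 261 in MCD anti-DBI.

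**Figure D1:**
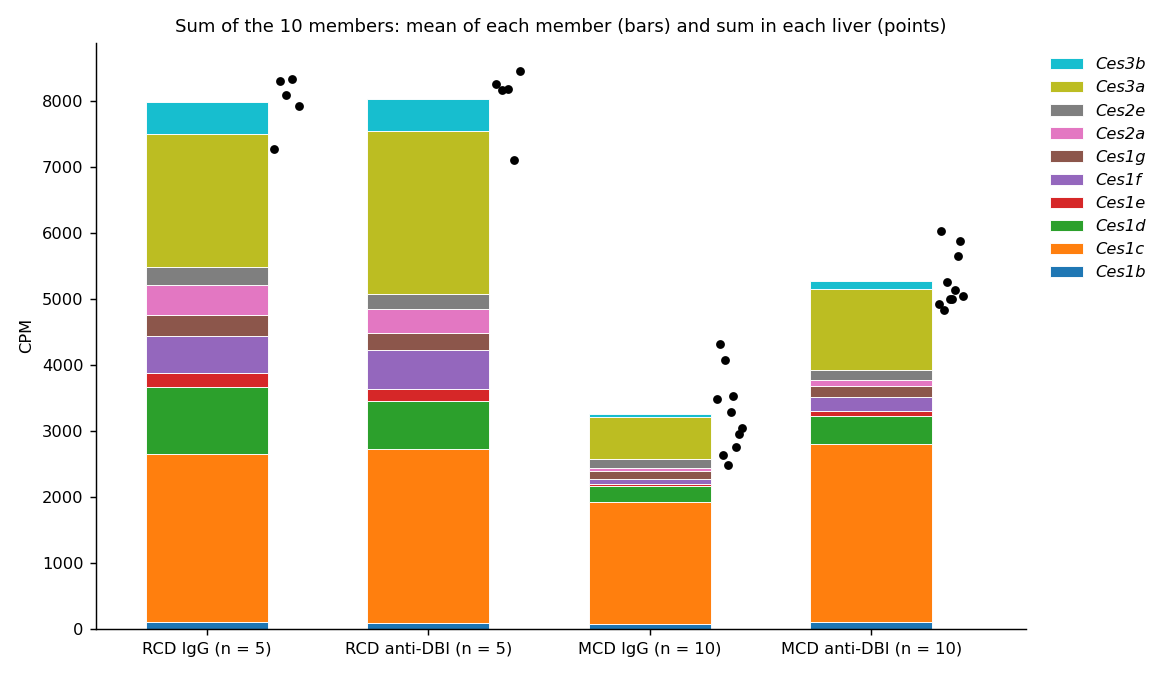
Mean level of each of the 10 genes stacked by group (bars, CPM, axis from 0) with the sum in each liver (points). The sum was 7983 CPM in RCD IgG and 3254 CPM in MCD IgG, and Ces1c made up 31.8% of the first and 56.5% of the second.

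The diet comparison asked how these hydrolases differ between MCD and RCD livers under the isotype. All 10 genes passed the test and all were lower in MCD IgG than in RCD IgG (edgeR, Benjamini-Hochberg adjusted p under 0.05). For comparison, 57.1% of 13672 genes tested passed, and 27.2% of those tested passed on the lower side. The median log2 fold change of the family was -1.86, that of all genes tested 0.03. These 10 genes were chosen with earlier results of these data known, and Ces2g, left out of them, rose on MCD. Falls ranged from 1.26-fold to 12.8-fold. For 8 genes every MCD IgG liver lay under every RCD IgG liver, as for 14.2% of all genes, and for Ces1b and Ces1c the groups overlapped. A called change of 2-fold or more was seen for 7 genes, and in either direction for 15.9% of all genes. Markers of other cells moved in the same comparison. Recruited macrophage markers were higher for 7 of 8 (median log2 fold change 2.62) and summed to 90.3 to 129 CPM in RCD IgG and 209 to 1591 CPM in MCD IgG. Stellate cell markers were higher for 5 of 7 (94.6 to 193 CPM against 135 to 408 CPM), and endothelial markers lower for 5 of 6 (281 to 317 CPM against 138 to 194 CPM). Kupffer cell (resident macrophage) markers were lower for 3 of 6 and higher for 1 (median -0.79), and both neutrophil markers tested were higher (median 3.11). Of 7 hepatocyte markers, 1 was higher and 2 were lower (median -0.23). Their part in the fall of the carboxylesterases was not tested.

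Among the endoplasmic reticulum hydrolases of the Ces1 group, Ces1d is the triacylglycerol hydrolase whose product supplies lipid for VLDL. It measured 846, 1123, 1110, 954 and 1053 CPM in the RCD IgG livers and 132 to 370 CPM (median 241) in the MCD IgG livers. The groups were far apart, and Ces1d fell by 2.06 on the log2 scale (SE 0.17, adjusted p = 1.48e-08). Ces1f, also named triacylglycerol hydrolase 2, held steady in the RCD IgG livers at 517, 583, 572, 566 and 549 CPM and measured 46.9 to 91.8 CPM (median 66.8) in MCD IgG. No liver came near the other group, and the fall was 8.01-fold (adjusted p = 1.88e-12, SE of the log2 fold change 0.12). Ces1e, or egasyn, binds β-glucuronidase and holds part of it in the endoplasmic reticulum. It went from 187, 271, 203, 211 and 216 CPM to between 26.6 and 44.5 CPM (median 31.3), which is 6.42-fold lower (log2 fold change -2.68, SE 0.12, adjusted p = 2.91e-12). Its partner Gusb, encoding β-glucuronidase, moved the other way and rose (log2 fold change 0.54, adjusted p = 0.00058). Ces1g, whose loss in mice leads to a fatty liver, went from 262 to 368 CPM in RCD IgG to 46.8 to 183 CPM in MCD IgG, where 1 liver stood far below the rest. It fell by 1.26 (SE 0.20, adjusted p = 2.64e-05).

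The 2 genes without the retention signal in the first cluster had the smallest falls of the 10 by estimate. Ces1c, the plasma carboxylesterase of rodents, measured 2183, 2568, 2734, 2607 and 2614 CPM in RCD IgG and 1181 to 2362 CPM (median 1866) in MCD IgG. Of 10 MCD IgG livers, 8 lay under all RCD IgG livers, and Ces1c fell by 0.46 (SE 0.13, adjusted p = 0.00701). For Ces1b the RCD IgG livers gave 81.2, 108, 114, 111 and 90.0 CPM and the MCD IgG livers 54.7 to 119 CPM (median 76.4). The highest single value thus belonged to an MCD liver. The fall of Ces1b by 0.33 (SE 0.14, adjusted p = 0.0478) lost its call when any of RCD IgG replicates 2, 3 and 4 or MCD IgG replicates 1, 3, 5, 6, 8, 9 and 10 was left out (adjusted p up to 0.121).

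Ces2a, a hydrolase of acylglycerols and prodrugs, measured 444, 414, 475, 462 and 456 CPM in RCD IgG and 14.0 to 62.1 CPM (median 31.9) in MCD IgG. The lowest RCD liver stood several-fold over the highest MCD liver, and the fall was 12.4-fold (log2 fold change -3.63, SE 0.22, adjusted p = 3.19e-10). Ces2e, its relative in the same cluster, went from 281, 310, 265, 239 and 282 CPM to between 123 and 170 CPM (median 148), a fall of 1.86-fold (log2 fold change -0.89, SE 0.08, adjusted p = 5.82e-08). Ces3a, the second most abundant member, measured 1994, 2109, 1896, 2221 and 1863 CPM in RCD IgG and 484 to 878 CPM (median 585) in MCD IgG (log2 fold change -1.66, SE 0.13, adjusted p = 1.13e-08). Its near copy Ces3b went from 475, 447, 375, 646 and 486 CPM to between 14.1 and 96.9 CPM (median 29.7). At 12.8-fold lower (log2 fold change -3.68, SE 0.33, adjusted p = 5.35e-08), Ces3b had the largest estimate, but it exceeded that of Ces2a by less than either SE. Without RCD IgG replicate 4 it was -3.55, and Ces2a reached -3.76 without MCD IgG replicate 4, so that the order of the pair is not fixed. Ces3b had a coefficient of variation of 69.3% among MCD IgG livers, and Ces2a one of 40.3%.

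**Figure D2:**
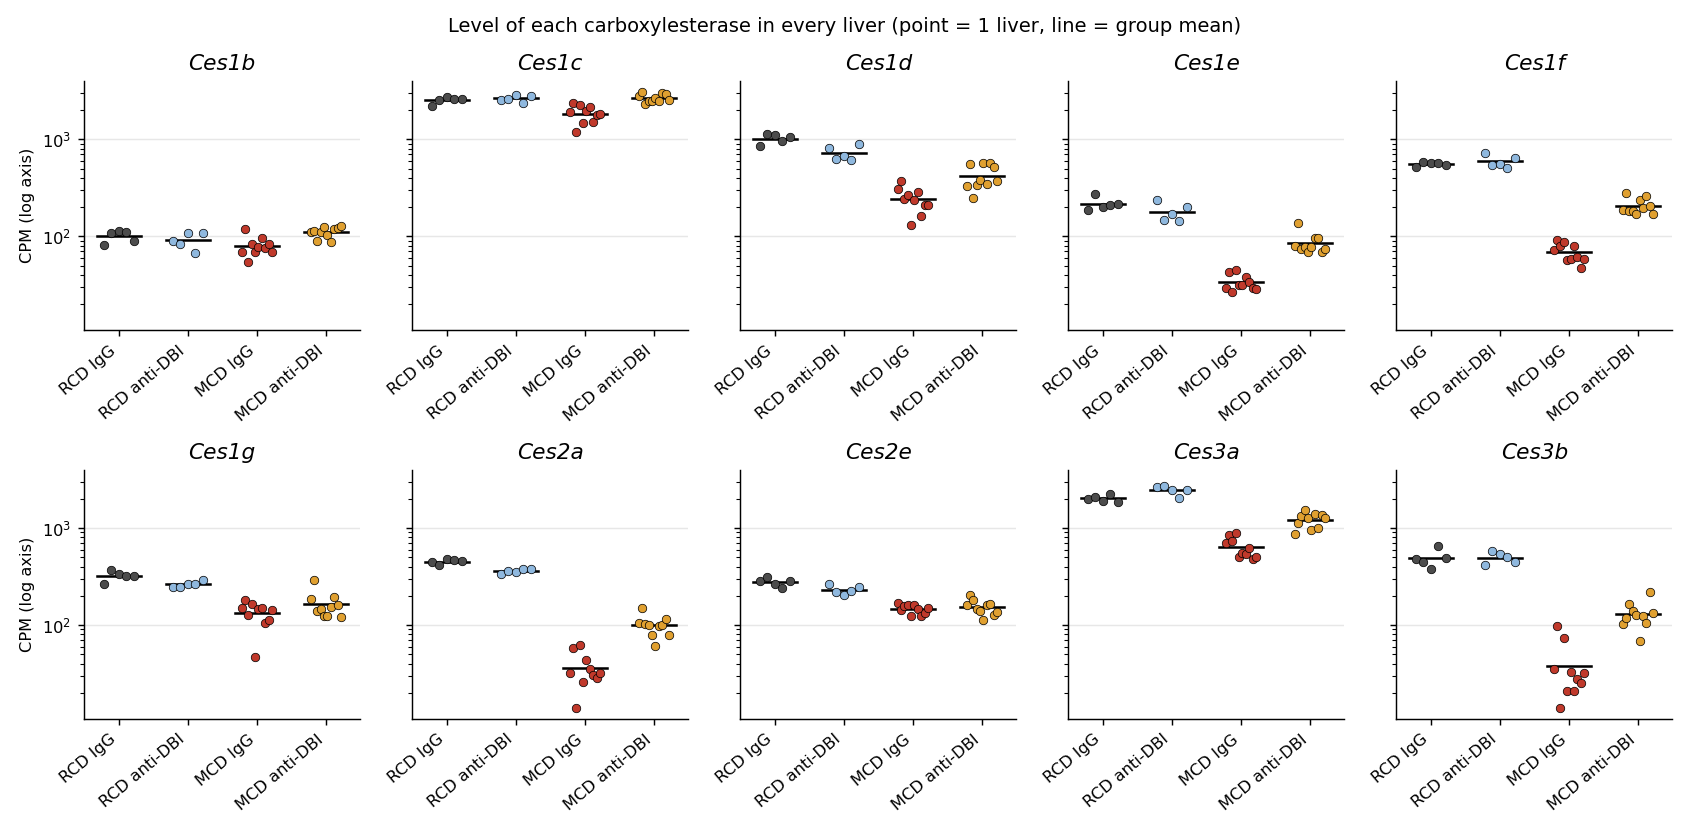
Level of each gene in CPM on a log axis, by group, with 1 point per liver and a line at the group mean. MCD IgG livers lay below all RCD IgG livers for 8 genes, and Ces1b and Ces1c overlapped between those groups.

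The antibody was then compared with the isotype on each diet, in comparisons that share no livers with each other. Both share their isotype livers with the diet comparison, so their results are not independent of the falls on MCD. On RCD, 2 of the 10 genes passed, both lower, while 6.08% of 12699 genes tested passed, 3.15% on the lower side. Ces2a measured 337, 358, 351, 380 and 380 CPM in RCD anti-DBI, all under the lowest RCD IgG liver at 414 CPM. This fall, of 0.32 on the log2 scale (SE 0.06, adjusted p = 0.00673), was the only one of the 10 without overlap, as held for 3.41% of all genes on the lower side. Ces1d measured 811, 631, 667, 611 and 887 CPM, of which 4 lay under all RCD IgG livers, and fell by 0.50 (SE 0.11, adjusted p = 0.0171). Without RCD anti-DBI replicate 2 or 3 its call was lost (adjusted p up to 0.0549). With all 30 livers in 1 fit, neither gene passed (Ces2a adjusted p = 0.631, Ces1d adjusted p = 0.295). Ces3a leaned upward, with 2620, 2733, 2470, 2047 and 2437 CPM and a log2 fold change of 0.29 that missed the threshold (SE 0.08, adjusted p = 0.054). Ces1g was at -0.29 (SE 0.08, adjusted p = 0.0556) and Ces2e at -0.25 (SE 0.08, adjusted p = 0.0894). For Ces1b, Ces1c, Ces1e, Ces1f and Ces3b the log2 differences lay between -0.28 and 0.09 with adjusted p from 0.259 to 0.926. In the same comparison, 4 of 6 Kupffer cell (resident macrophage) markers were higher (median log2 fold change 0.55), and all 6 summed to 238 to 325 CPM in RCD IgG and 293 to 455 CPM in RCD anti-DBI. Of the recruited macrophage markers 1 of 5 was higher, of the hepatocyte markers 1 of 7, and none was lower. Their part in the falls of Ces2a and Ces1d was not tested.

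On MCD, the antibody group was higher for 8 of the 10 genes, while 42.1% of 13538 genes tested passed, 20.4% on the higher side. The median log2 fold change was 0.86 over the family and -0.02 over all genes. Ces1e and Ces1f were the genes whose groups did not overlap, as was so for 2.51% of all genes on the higher side, and 4 genes rose 2-fold or more, where 4.8% of all genes passed with a change of that size in either direction. Ces1f measured 169 to 281 CPM (median 192) in MCD anti-DBI, 2.97-fold over MCD IgG (log2 fold change 1.57, SE 0.12, adjusted p = 1.68e-08), and Ces1e measured 69.0 to 136 CPM (median 77.0), 2.50-fold over it (1.32, SE 0.12, adjusted p = 1.1e-07). Gusb moved opposite to Ces1e here too and fell (-0.47, adjusted p = 0.00048), but the diet comparison used the same MCD IgG livers.

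Ces3b rose to between 69.0 and 220 CPM (median 126), 3.42-fold over MCD IgG (log2 fold change 1.77, SE 0.28, adjusted p = 4.92e-05), with 9 of 10 livers above every MCD IgG liver. This was the largest estimate, by less than its SE over that of Ces1f. Ces2a rose 2.71-fold, to between 61.2 and 151 CPM (median 99.5; log2 fold change 1.44, SE 0.20, adjusted p = 9.59e-06), and a single liver fell within the MCD IgG range. The abundant Ces3a reached 863 to 1517 CPM (median 1277; log2 fold change 0.92, SE 0.13, adjusted p = 8.61e-06). Ces1d rose to between 250 and 570 CPM (median 378; 0.79, SE 0.17, adjusted p = 0.000948), with 6 livers above all MCD IgG livers. Ces1c, at 2336 to 3047 CPM (median 2616), rose by 0.53 (SE 0.10, adjusted p = 0.000344), and Ces1b, at 88.2 to 127 CPM (median 112), by 0.47 (SE 0.11, adjusted p = 0.0017).

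Ces1g and Ces2e did not pass. Ces1g measured 120 to 289 CPM (median 150) in MCD anti-DBI, a log2 difference of 0.30 with a 95% confidence interval of -0.09 to 0.68 (adjusted p = 0.206). Its highest liver, replicate 2, stood apart, and without it the difference was 0.17. Ces2e measured 113 to 204 CPM (median 153), a log2 difference of 0.05 with an interval of -0.14 to 0.23 (adjusted p = 0.698), which leaves no room for a rise like that of Ces2a. Hepatocyte markers moved along in this comparison, since 5 of 7 were higher in MCD anti-DBI and none lower (median log2 fold change 0.43), and their part in the rise of the carboxylesterases was not tested. Recruited macrophage markers were lower for 7 of 8 (median -0.90) and summed to 209 to 1591 CPM under the isotype and 144 to 969 CPM under anti-DBI. Stellate cell markers were lower for 4 of 7 (median -0.40) and both neutrophil markers tested were lower (median -0.79). The part of these cells was not tested either.

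Whether the antibody difference depended on the diet was tested directly as an interaction over all 30 livers. It passed for the same number of genes, 8 of 10, all with the antibody difference higher on MCD than on RCD, while 19.2% of 14335 genes tested passed, 10.6% in that direction. The largest estimates were those of Ces2a (1.77, SE 0.29, adjusted p = 0.000134), Ces3b (1.76, SE 0.42, adjusted p = 0.00367), Ces1e (1.61, SE 0.21, adjusted p = 6.13e-06), Ces1f (1.49, SE 0.19, adjusted p = 6.13e-06) and Ces1d (1.30, SE 0.27, adjusted p = 0.00109) on the log2 scale. Ces3a (0.64), Ces1b (0.62) and Ces1c (0.49) followed with adjusted p of 0.0177, 0.0188 and 0.0261. The call of Ces1c was lost with upper-quartile scaling (adjusted p = 0.0685) and without RCD anti-DBI replicate 4 (adjusted p = 0.0554). For Ces1g (0.60, SE 0.28, adjusted p = 0.126) and Ces2e (0.31, SE 0.14, adjusted p = 0.127) the test was not passed. In the same test 6 of 8 recruited macrophage markers had a lower antibody difference on MCD than on RCD (median -1.33) and 3 of 7 hepatocyte markers a higher one (0.18), and their part was not tested.

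**Figure D3:**
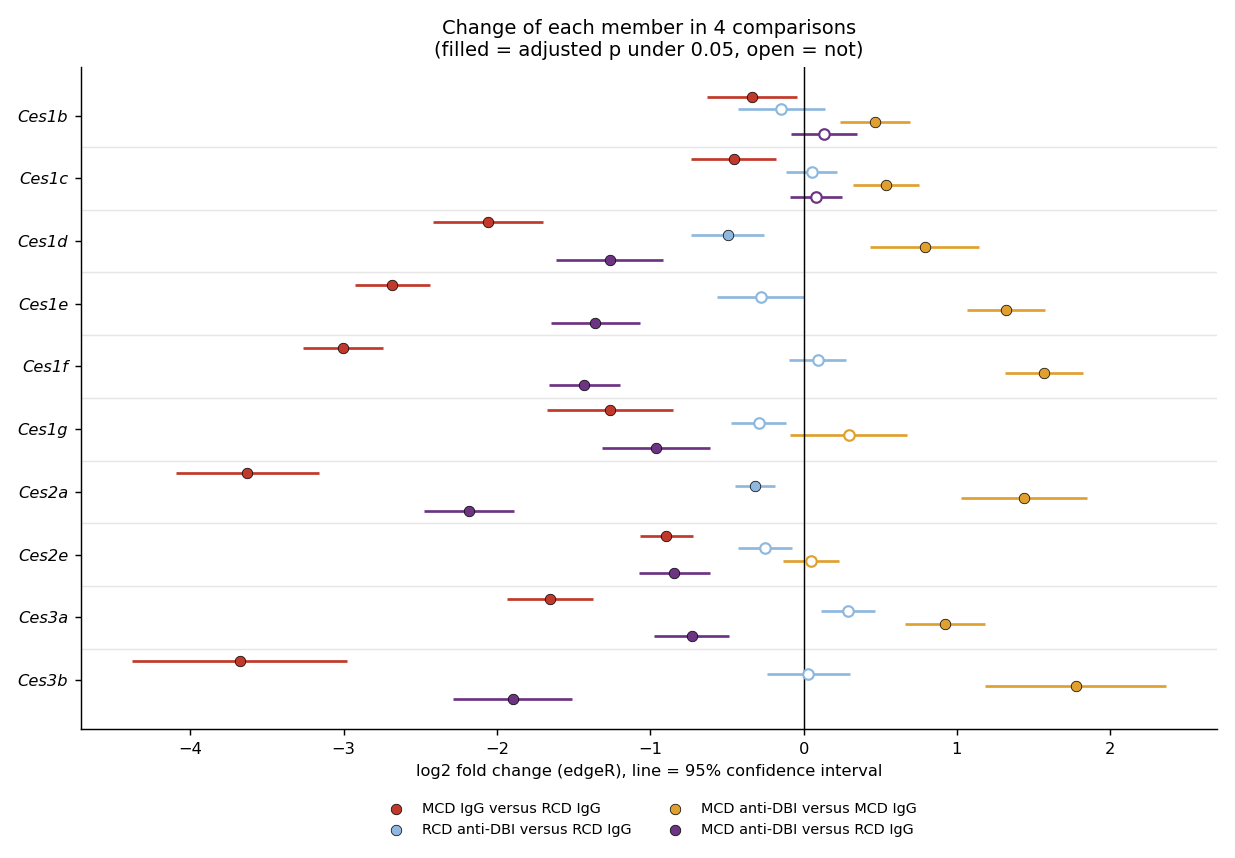
Log2 fold change of each gene with its 95% confidence interval in 4 comparisons, filled where the adjusted p was under 0.05. Falls on MCD reached -3.68 for Ces3b, and Ces1b and Ces1c were the genes whose MCD anti-DBI level did not pass the test against RCD IgG.

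MCD anti-DBI livers were also set against RCD IgG, the controls that the diet comparison used too, so both comparisons share these livers. Of the 10 genes, 8 were lower, while 36.5% of 13912 genes tested passed, 18.1% on the lower side. For 7 of them the groups did not overlap, as for 7.73% of all genes. The largest estimate was that of Ces2a at 4.55-fold lower (log2 fold change -2.18, SE 0.14, adjusted p = 6.82e-09), then Ces3b at 3.73-fold (-1.90, SE 0.18) and Ces1f at 2.69-fold (-1.43, SE 0.11). Ces1e (-1.36), Ces1d (-1.27), Ces1g (-0.96), Ces2e (-0.84) and Ces3a (-0.73) were lower with adjusted p of 0.000236 or less. In the comparison with RCD IgG, endothelial markers were lower for 6 of 6 (median log2 fold change -0.71), recruited macrophage markers higher for 6 of 8 and lower for 1 (1.47), Kupffer cell markers lower for 3 of 6 and higher for 1 (-0.59), and hepatocyte markers higher for 4 of 7 (0.35). Their part in the levels of the carboxylesterases was not tested. Ces1c and Ces1b differed by 0.08 (95% confidence interval -0.09 to 0.25, adjusted p = 0.447) and 0.13 (-0.08 to 0.35, adjusted p = 0.321), so that a remaining fall of the size of the one on MCD IgG lay outside both intervals. Against RCD anti-DBI, 8 genes were again lower, with 36.9% of 13887 genes passing and 18.4% lower, 7 of the 8 without overlap (7.53% of all genes), and Ces1b (0.28, adjusted p = 0.0657) and Ces1c (0.03, adjusted p = 0.789) again did not pass. There, endothelial markers were lower for 6 of 6 (-0.82), Kupffer cell markers lower for 5 of 6 (-0.96), recruited macrophage markers higher for 5 of 8 and lower for 1 (0.93), and hepatocyte markers higher for 3 of 7 and lower for 1 (0.08), and their part was not tested.

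Close copies could respond alike or apart, and the ratio of their counts within a liver shows this without any scaling between libraries. The 4 pairs most alike in coding sequence were compared, a choice made after the levels had been seen, with exact two-sided permutation tests of the log2 ratio in 3 comparisons each (12 tests, Benjamini-Hochberg adjusted values given beside each p). Ces3b counted 19.8 to 29.1 per 100 counts of Ces3a in RCD IgG, 1.91 to 11.4 in MCD IgG and a median of 10.4 in MCD anti-DBI. The ratio fell by 2.21 on the log2 scale on MCD (exact p = 0.000666, the smallest this design can give, adjusted p = 0.0016), with no overlap, and was 1.02 higher with the antibody (exact p = 0.000314, adjusted p = 0.0016). The MCD IgG livers are part of both comparisons, here and for the pairs below. A pair with 95.3% of its coding bases in common thus moved unequally.

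Ces2e counted 51.6 to 74.9 per 100 counts of Ces2a in RCD IgG, 246 to 1133 in MCD IgG, with MCD anti-DBI at 110 to 184. Every MCD IgG liver held more Ces2e than Ces2a counts and every RCD IgG liver fewer. The log2 ratio rose by 2.84 on MCD (exact p = 0.000666, adjusted p = 0.0016) and differed by -1.47 with the antibody there (exact p = 1.08e-05, the smallest possible, adjusted p = 0.00013), in both cases without overlap. For Ces1g over Ces1d the shift was 0.77 on MCD (exact p = 0.000666, adjusted p = 0.0016) and -0.47 with the antibody (exact p = 0.0103, adjusted p = 0.0205).

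For Ces1c over Ces1b no comparison passed. Per 100 counts of Ces1b, Ces1c counted 2356 to 2904 in RCD IgG, 1985 to 2808 in MCD IgG, with MCD anti-DBI at 1990 to 2783, and the log2 ratio differed by -0.13 on MCD (exact p = 0.197, adjusted p = 0.237) and by 0.07 with the antibody (exact p = 0.375, adjusted p = 0.409). The largest of its 3 differences was that with the antibody on RCD, 0.21 (exact p = 0.0952, adjusted p = 0.163). The difference on MCD was at most 0.16 in size when any 1 liver was left out. On RCD no pair passed (exact p from 0.0952 to 0.595, where 0.00794 is the smallest possible).

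**Figure D4:**
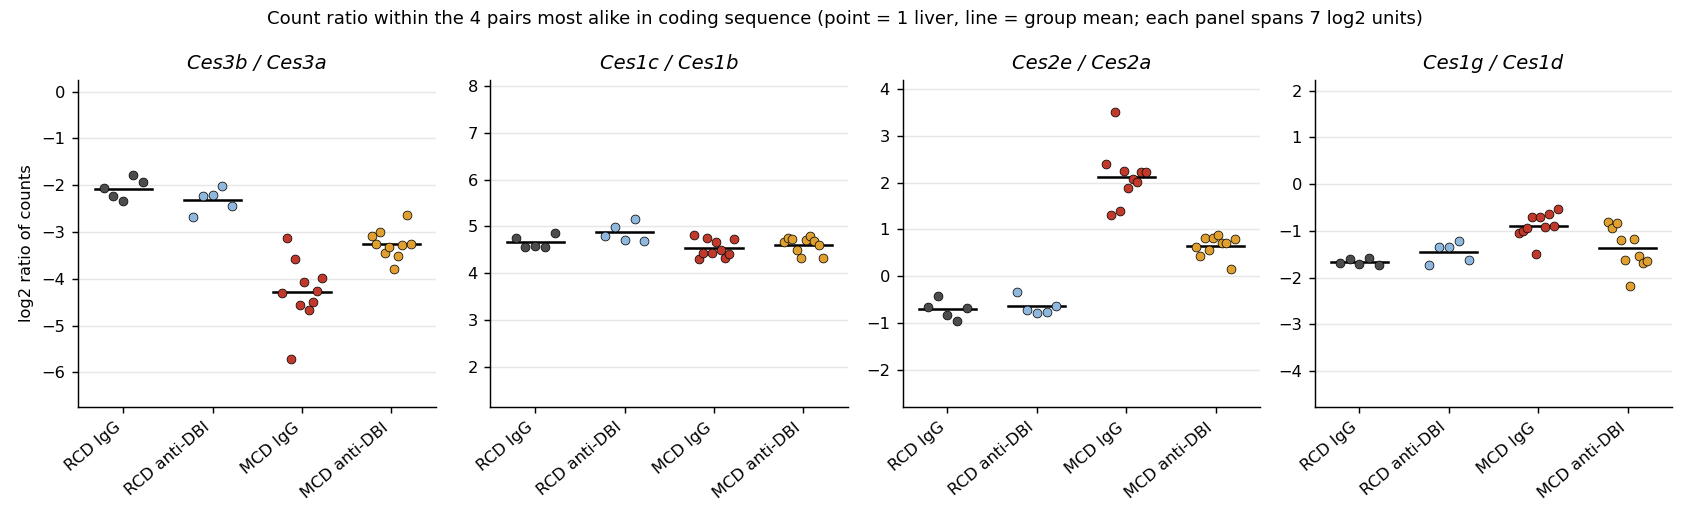
Log2 ratio of counts within 4 pairs of close copies, 1 point per liver with the group mean as a line, each panel spanning the same number of log2 units. Ces2e over Ces2a rose by 2.84 on MCD and Ces3b over Ces3a fell by 2.21, while Ces1c over Ces1b differed by -0.13.

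Promoter windows from RefSeq (GRCm38.p6, 250 bases before to 50 after a transcription start) were found for 7 of the 10 genes, in 8 windows, and not for Ces1d, Ces1f and Ces3a. The windows of Ces1b and Ces1c, the pair whose ratio passed no test, are printed with their longest common run in capitals, and those of Ces2a and Ces3b, the 2 genes with the largest falls, with matches to 1 of 6 short motifs in capitals.
Ces1b, chr8:93079891-93080190, - strand: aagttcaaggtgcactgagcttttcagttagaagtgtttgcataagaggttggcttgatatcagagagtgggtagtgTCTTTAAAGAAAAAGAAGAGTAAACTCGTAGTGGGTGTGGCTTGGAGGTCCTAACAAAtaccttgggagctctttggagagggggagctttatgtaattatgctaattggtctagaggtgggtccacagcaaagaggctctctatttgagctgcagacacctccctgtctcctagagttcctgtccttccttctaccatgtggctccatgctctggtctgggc
Ces1c, chr8:93131234-93131533, - strand: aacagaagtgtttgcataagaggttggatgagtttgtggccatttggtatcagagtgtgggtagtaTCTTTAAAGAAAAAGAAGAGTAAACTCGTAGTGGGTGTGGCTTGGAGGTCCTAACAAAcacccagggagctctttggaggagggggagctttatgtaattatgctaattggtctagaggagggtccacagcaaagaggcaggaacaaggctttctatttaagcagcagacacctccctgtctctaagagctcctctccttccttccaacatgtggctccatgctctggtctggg
Ces2a, chr8:104733753-104734052, + strand: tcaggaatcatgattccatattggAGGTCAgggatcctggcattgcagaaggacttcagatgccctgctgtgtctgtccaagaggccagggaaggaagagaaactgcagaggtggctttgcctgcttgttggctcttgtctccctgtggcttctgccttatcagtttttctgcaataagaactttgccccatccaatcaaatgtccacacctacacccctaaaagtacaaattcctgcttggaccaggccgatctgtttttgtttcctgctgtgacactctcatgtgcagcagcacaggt
Ces3b, chr8:105083505-105083804, + strand: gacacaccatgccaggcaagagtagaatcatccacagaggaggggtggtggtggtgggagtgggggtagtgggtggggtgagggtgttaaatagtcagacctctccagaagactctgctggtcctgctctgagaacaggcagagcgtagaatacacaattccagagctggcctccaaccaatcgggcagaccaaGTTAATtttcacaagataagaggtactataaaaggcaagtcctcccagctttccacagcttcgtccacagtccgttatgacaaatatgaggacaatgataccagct
Ces1b and Ces1c shared a run of 58 identical bases upstream of the start. Between any other 2 of the 7 genes with a window, the longest run was 17 bases, for Ces2a and Ces2e. Ces3a with Ces3b and Ces1d with Ces1g could not be compared, since Ces3a and Ces1d had no window. Searched on both strands, AGGTCA, a core site of nuclear receptors, occurred in the window of Ces2a and in 16.3% of all 32851 windows of that length, and GTTAAT, a core site of HNF1, in the window of Ces3b and in 7.10% of all. The letters TTCNNNGAA of STAT factors (8.30% of all windows), CAAAGTCCA of HNF4 (0.475%), TTGCNNCAA of C/EBP (2.08%) and TGACNNNGC of NRF2 (12.4%), the last of which can overlap the reverse of AGGTCA, occurred in none of the 8 windows.

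The 10 other Ces genes of the table were mostly near 0. Ces5a had no count in any liver, Ces1a, Ces1h, Ces2d-ps and Ces2f stayed at or under 1.13 CPM in every liver, and Ces2h reached at most 2.36 CPM. Ces2b measured 0.0975 to 3.87 CPM in RCD IgG and at most 0.619 CPM on MCD. Ces2c and Ces2g were the remaining genes at appreciable level, and they moved in opposite directions on MCD. Ces2c went from 63.6 to 110 CPM in RCD IgG to 22.9 to 48.9 CPM in MCD IgG and fell (log2 fold change -1.17, adjusted p = 3.5e-06), and it also fell with the antibody on RCD (-0.61, adjusted p = 0.012). Ces2g went from 65.9 to 74.6 CPM to between 81.4 and 120 CPM and rose (0.61, adjusted p = 1.5e-05). With the antibody on MCD neither passed (Ces2c -0.22, adjusted p = 0.49, Ces2g -0.18, adjusted p = 0.14). Ces4a rose with the antibody on RCD (1.13, adjusted p = 0.013) at levels of at most 4.43 CPM. On MCD its log2 fold change of -2.04 (adjusted p = 0.016) rested on MCD IgG replicate 3, the highest liver of all, and without it was -0.97 and missed the threshold (adjusted p = 0.103). On MCD the Ces2 genes thus differed in direction, while Ces1b to Ces1g were all lower.

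Other hydrolases of liver lipid were counted in a list of their own, which also holds Abhd5 and G0s2, an activator and an inhibitor of the lipase Pnpla2. On MCD, 5 of 16 were higher and 6 lower (median log2 fold change -0.16). All 10 carboxylesterases followed here were lower, but they were chosen with earlier results known and leave out Ces2g, which rose. Aadac, an arylacetamide deacetylase of the endoplasmic reticulum, fell by 1.59 (adjusted p = 7.8e-11) and Lipc, hepatic lipase, by 1.43 (adjusted p = 5.1e-06). Abhd2 rose by 2.24 (adjusted p = 2.4e-11) and Lpl, lipoprotein lipase, by 3.07 (adjusted p = 1.8e-08). With the antibody on MCD, 5 of 15 were higher, Aadac (0.65, adjusted p = 5.7e-06) and Lipc (0.78, adjusted p = 0.00035) among them, and 4 lower, among them Abhd2 (-0.60, adjusted p = 0.00022) and Lpl (-1.20, adjusted p = 0.00038). None of the 16 passed on RCD (edgeR, 6 at an unadjusted p under 0.05). Of all genes tested, 57.1% passed on MCD, 42.1% with the antibody there and 6.08% with it on RCD. At an unadjusted p under 0.05 (edgeR) on RCD, the share of all genes was 20.1%. These shares stand beside the lists that follow too.

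Of 15 genes of VLDL assembly and lipid droplets, 6 were lower and 7 higher on MCD. Mttp, which loads lipid onto apolipoprotein B, fell by 1.03 (adjusted p = 2.8e-09) and Sar1b, a GTPase of secretory vesicles, by 0.88 (adjusted p = 8.6e-09), while the droplet proteins Cidec (4.99, adjusted p = 1.2e-07) and Plin5 (1.60, adjusted p = 4.8e-08) rose. With the antibody on MCD 6 were higher, including Mttp (0.47, adjusted p = 4.8e-05) and Sar1b (0.41, adjusted p = 5.9e-06), and 3 lower, including Cidec (-2.54, adjusted p = 3.7e-05). On RCD only Mia2 passed, lower (-0.22, adjusted p = 0.041). A list of 12 further enzymes of ester, amide and drug metabolism held 10 hydrolases, the flavin monooxygenase Fmo5 and the acetyltransferase Nat8. Of the 10 hydrolases, 6 were lower and none higher on MCD, such as Ephx2, soluble epoxide hydrolase (-1.28, adjusted p = 1e-09), and Bphl, which activates valacyclovir (-1.12, adjusted p = 1.5e-06). With the antibody on MCD 7 of them were higher and none lower, among them Pon1, the paraoxonase of plasma (0.65, adjusted p = 3.1e-06), and on RCD none passed (edgeR, 3 at an unadjusted p under 0.05). Fmo5 was lower with the antibody on MCD (-0.55, adjusted p = 3.2e-05) and on RCD (-0.64, adjusted p = 0.0061), and Nat8 was lower on RCD (-0.85, adjusted p = 0.0012).

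Regulators of hepatic drug metabolism and of hepatocyte identity were counted too. On MCD 10 of 18 were lower and Cux2 was higher (4.42, adjusted p = 6.9e-05). Of all genes tested, 57.1% passed on MCD and 42.1% with the antibody there. Ghr, the growth hormone receptor, fell by 1.76 (adjusted p = 7.8e-12), Stat5b, its transcription factor, by 0.69 (adjusted p = 3.9e-08), and Cebpa by 0.93 (adjusted p = 6e-08). The nuclear receptors Nr1i2 (PXR, -0.27, adjusted p = 0.069) and Nr1i3 (CAR, -0.17, adjusted p = 0.40), known to induce Ces2a in mice given drugs, did not pass, the second of them named after its values were seen. With the antibody on MCD 7 were higher and none lower, led by Cebpa (0.74, adjusted p = 7.6e-07) and Ghr (0.82, adjusted p = 2e-06), and on RCD only Por passed, lower (-0.67, adjusted p = 0.0027). Genes of male-biased liver expression, a list written with these results known, all fell on MCD (20 of 20, median log2 fold change -4.02) and 17 of 20 were higher and 1 lower with the antibody there, while all 11 measured female-biased genes rose on MCD, and 1 was higher and 3 lower with the antibody.

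Across the livers of a single group the members could be set against each other as well. Among the 10 MCD IgG livers, 43 of 45 pairs of members had a positive Pearson r of log2(CPM + 1) (median r = 0.539), and 8 passed a permutation test after Benjamini-Hochberg adjustment over the 45 pairs, all of them positive. The closest were Ces1c and Ces2a (r = 0.915, permutation p = 0.00018, adjusted p = 0.00405, Spearman rho = 0.964, permutation p = 7e-05, adjusted p = 0.00315), and Ces2a and Ces3b (r = 0.892, permutation p = 0.00075, adjusted p = 0.0112, rho = 0.842, permutation p = 0.0036, adjusted p = 0.027). With 2 livers left out of each pair, r was 0.765 and 0.849, and the median over the 45 pairs was 0.433. These livers were chosen anew for each pair, as the 2 farthest from the median of its first gene in the order listed at the start. Ces1d with Ces1g (r = 0.877) and Ces1f with Ces3a (r = 0.842) were next among pairs that also passed by rank. No share over all pairs of genes was computed, so these counts are not shown to be particular to the family. Acsm5, Hgfac, Alb and Asgr2, picked outside the family for likeness to Ces2a, gave r of 0.92, 0.92, 0.88 and 0.87 with it in MCD IgG. Among MCD anti-DBI livers 28 of 45 pairs were positive (median r = 0.159, or 0.0994 with the 2 farthest livers left out) and none passed by either measure. With the nearly identical replicates 5 and 10 averaged to 1 liver, a choice made after seeing the data, 31 of 45 were positive (median r = 0.200). There, 11 of the 12 pairs of a Ces3 with a Ces1 gene had r below 0, a count that dropped to 7 with the 2 farthest livers left out. Whether the groups differ in this respect was not tested, and the RCD groups of 5 were too small for it.

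**Figure D5:**
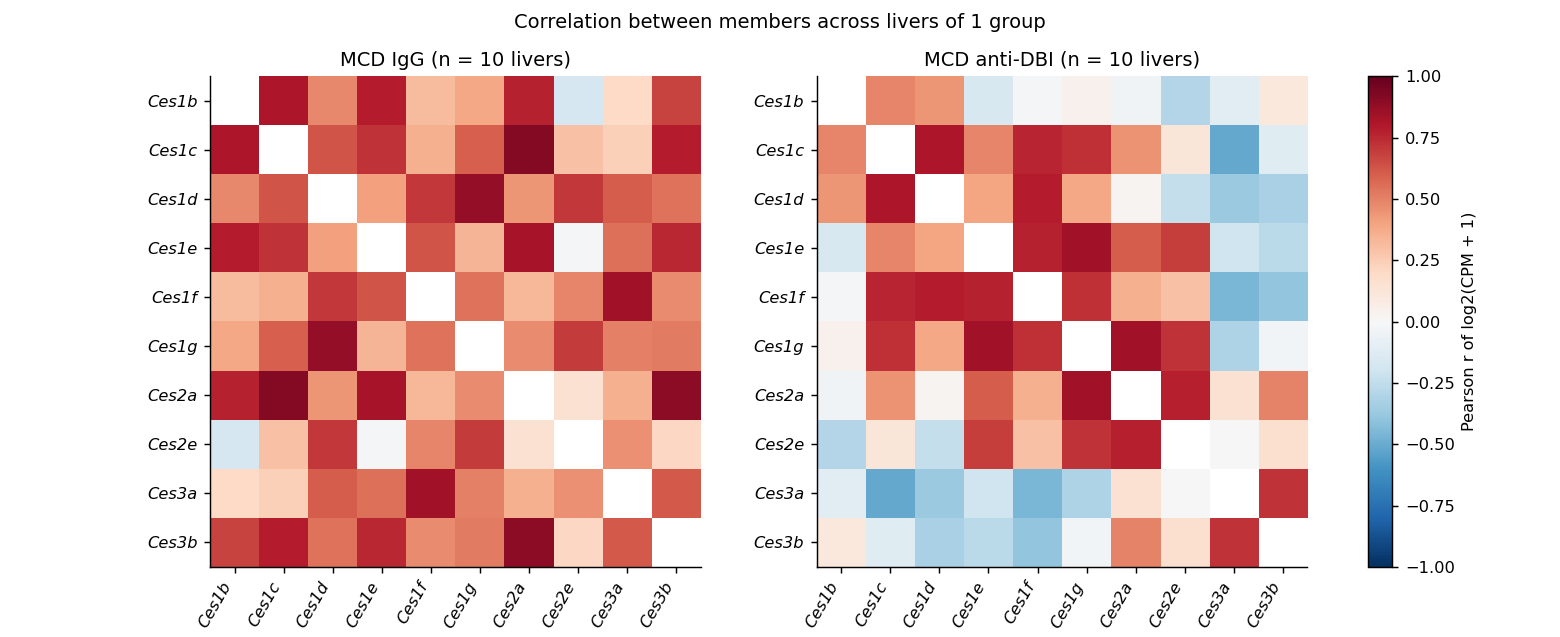
Pearson r of log2(CPM + 1) between members across the 10 livers of MCD IgG (left) and of MCD anti-DBI (right). In MCD IgG 43 of 45 pairs were positive, in MCD anti-DBI 28 of 45.

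For 1 member of each subfamily, the genes outside the family with the most similar deviations from the group means were looked up among 9439 genes over the 30 livers, as a description. Those of Ces3a were Msrb1 (r = 0.753), Ivd (0.733), Fbxo7 (0.679) and Adhfe1 (0.670). Those of Ces1g were Rbbp9 (0.731), Ttr (0.729), Gba2 (0.714) and C1s1 (0.713). These pooled values did not hold in every group, since within RCD anti-DBI Ces1g gave r = -0.69 with Ttr, -0.74 with Gba2 and -0.08 with Rbbp9, within RCD IgG -0.51 with C1s1, and Ces3a gave -0.20 with Adhfe1 within RCD anti-DBI. For Ces2a they were Acsm5 (0.865), Hgfac (0.860), Alb (0.846) and Asgr2 (0.844), all positive within each of the 4 groups. Each liver's own depth and cell makeup can still enter its deviations from the group mean, and their part was not tested.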

How the data were processed

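Liver RNA of 30 mice was sequenced by the authors as paired reads of 150 bases. The deposited whole-number counts per gene were made by the authors, per the file headers with STAR and featureCounts on GRCm38 with Ensembl annotation, while the study's methods name HISAT2 and GRCm39. How strand and multiply mapping reads were treated is not given in the sources used here. Deposited normalized values, and the authors' own DESeq2 comparisons (fold changes and p-values), were not used.

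Each comparison was fitted with edgeR 4.0.16 in R 4.3.3 (filterByExpr, TMM, quasi-likelihood test) on the livers of its groups, and the interaction on all 30, with Benjamini-Hochberg adjustment over all genes tested and a threshold of 0.05. CPM used the TMM factors of all 30 libraries. Standard errors came from the F statistic, and 95% confidence intervals from the t distribution with the fit's degrees of freedom. Ratios and correlations were tested with SciPy 1.17.1 by exact enumeration or 100000 permutations. Scripts were tested on simulated data. Alternatives were DESeq2 1.42.0, limma 3.58.1, other scalings and filters, a replicate block, Kruskal-Wallis with Dunn tests, and each library left out. Named genes were all members, Dbi, the other Ces genes, up to 4 genes of each list with the smallest p in a comparison or moving against their list, and the 4 genes most similar to 1 member per subfamily (mean of at least 5 CPM). Members and lists were chosen with earlier results of these data known.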

Additional observations from a re-analysis of the deposited data

Results flagged for a closer look

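Values of single livers stood apart from their groups in 5 of 60 groups examined, where chance alone marks about 1 in 20. In MCD anti-DBI, replicate 2 was the highest for Ces1e at 136.114 CPM (next 96.7) and for Ces1g at 289.236 CPM (next 195). In RCD anti-DBI, replicate 4 had the lowest sum of the 10 genes, 7100.34 CPM (next 8170). In MCD IgG, the log2 ratio of Ces2e over Ces2a was highest in replicate 3 at 3.5015 (next 2.41), and that of Ces1g over Ces1d was lowest in replicate 5 at -1.49839 (next -1.04).

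The antibody difference differed between the diets for 8 genes, by the edgeR interaction term over all 30 livers. It was higher on MCD by 0.621166 for Ces1b, 0.494858 for Ces1c, 1.29737 for Ces1d, 1.61177 for Ces1e, 1.48741 for Ces1f, 1.77122 for Ces2a, 0.644223 for Ces3a and 1.75649 for Ces3b on the log2 scale (adjusted p from 6.13e-06 to 0.0261). That of Ces1c did not pass with upper-quartile scaling (adjusted p = 0.0685) or without RCD anti-DBI replicate 4 (adjusted p = 0.0554).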

How the results depend on the processing

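Apart from the rank tests, the fall of 9 of the 10 genes on MCD IgG and the rise of 8 on MCD anti-DBI over MCD IgG kept their direction and their side of the threshold under every alternative run. The fall of Ces1b was the exception. It missed the threshold with upper-quartile scaling (adjusted p = 0.123), no filter (0.0562), a minimum of 10 counts (0.0795) and the replicate block (-0.39, adjusted p = 0.0534), and when any 1 of 10 livers was left out. Among the interactions, that of Ces1c missed it with upper-quartile scaling (adjusted p = 0.0685) and without RCD anti-DBI replicate 4 (0.0554). No direction of a called result reversed.

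The RCD comparison was the least stable. Against 2 members called, DESeq2 called 5, no filter 4, all 30 libraries in 1 fit 0 and the rank tests 0. Of all genes, 772 (6.08%) were called, against 1049 (8.07%) by DESeq2, 852 of 24331 tested with no filter, 333 (2.32%) with all 30 libraries in 1 fit and 215 (1.69%) by the rank tests. Leaving out 1 library gave 1 to 3 members and 470 to 836 genes. At an unadjusted p under 0.05, edgeR counted 5 members and 2553 (20.1%) of all genes. The cause was not tested.

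Kruskal-Wallis and Dunn tests, adjusted over 6 pairs of groups and not over genes, called 2733 genes and 2 members for MCD anti-DBI against MCD IgG, 2145 and 3 against RCD IgG, and 2094 and 0 against RCD anti-DBI, where edgeR called 5696, 5084 and 5122 genes and 8 members each. Upper-quartile scaling moved the higher share of interaction calls from 55.1% to 39.1%, and leaving out the filter moved the median of all genes on MCD by 0.12. The median r between members in MCD IgG was 0.433 with the 2 farthest livers, chosen for each pair by its first gene, left out.

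Replicate numbers are shared between groups but did not pair the livers (correlations of same-numbered deviations -0.25 to 0.20). The replicate block gave 6275 genes on MCD against 7807, 676 against 772 on RCD, 5214 against 5696 with the antibody on MCD and 2753 against 2752 for the interaction. Counts limit precision little for the 10 genes, and 2 nearly identical libraries, summed to 1, changed no call of a member.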
